A study of Homo sapiens with 7 samples.

Results

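Glycolysis splits glucose into pyruvate, which lactate dehydrogenase can reduce to lactate. Described here are 10 genes of this pathway in a transcriptome-wide map of N6-methyladenosine (m6A): HK1, HK2, PFKL, PFKFB3, ALDOA, GAPDH, PGK1, ENO1, PKM2 (the older symbol of PKM) and LDHA. They were chosen by symbol, and all 10 were found among the 24721 gene symbols of the deposited table, in 11 of its 25918 transcripts. PKM2 had 2 transcripts, a full-length one and a short partial one.

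m6A is the commonest internal modification of messenger RNA. It is written by a methyltransferase complex within a short consensus sequence and read by proteins that act on the splicing, translation and decay of the message. The hexokinase, phosphofructokinase and pyruvate kinase steps of glycolysis are practically irreversible and are where the pathway is chiefly controlled, while the enzymes between and after them work close to equilibrium. Tumour cells often run glycolysis at a high rate even with oxygen present, and commonly use HK2, PKM2 and LDHA, while liver cells make pyruvate with the liver pyruvate kinase (PKLR).

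The cells carried the label HepG2, which is an established line from a human liver cancer. They were untreated and grown in high-glucose medium with serum. Their poly(A) RNA was fragmented to about 100 nt, and of the 7 libraries 4 were enriched with an antibody to m6A (IP) and 3 were input RNA. The deposited values were 1 table for the series, without a column for any library. Depth per library is therefore unknown, no value has a replicate error, and no test of IP against input or of the genes described here was made.

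Of the 10 enzymes, 7 had at least 1 peak, and these carried 13 peaks. The share with a peak was 29.1% of all symbols, 35.6% of symbols with a coding transcript and 41.5% of symbols above the lowest expression value of the table, but it was 69.0% among the 6010 symbols expressed at least as strongly as PFKFB3, the least expressed of the 10. Having a peak was thus about as common among the 10 as among genes in that range of expression. PFKL and PFKFB3 had 3 peaks each, HK2 and PKM2 had 2, HK1, PGK1 and ENO1 had 1, and ALDOA, GAPDH and LDHA had none. At least 2 peaks were listed for 4 of the 10, against 32.0% of symbols in the same range of expression.

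All 13 peaks lay in the first or the last exon, which is not always near an end of the transcript. There were 5 in exon 1 and 8 in the exon that holds the stop codon and the 3' UTR, and none in the coding sequence segment. Of the 5127 peaks of all genes placed on GENCODE transcripts as described below, 23.6% lay in the first exon and 60.9% in the last. Exon 1 held 19.8% of all listed peaks and 22.4% of those in transcripts at or above the expression of PFKFB3. In transcripts with an expression quantile of 0.99 or more the share was 39.0%. HK1, PGK1 and ENO1 were marked in exon 1 only, HK2 and PFKFB3 in the last exon only, and PFKL and PKM2 in both. Coding sequence peaks were listed for 0 of 10 enzymes, against 11.2% of all symbols and 21.9% of symbols at or above the expression of PFKFB3.

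The sequences below show an m6A consensus site near each peak, where one was found within 50 nt. Such a match alone is not evidence for a peak. The consensus lay in 75.2% of all windows of that length in transcripts with placed peaks. The printed sequences come from GENCODE release 29 transcripts (build GRCh38). On these, 11 of the 13 peaks, of 6 genes, could be placed by exon number and exon length. The consensus RRACH stands for 12 pentamers, in which either purine is followed by either purine, then by AC and by A, C or T, and GGACT is one of them. Capitals mark the GGACT nearest to the peak, or, where there was none within 50 nt, the nearest RRACH. The sense strand is written 5' to 3' with T for U.
HK1, transcript start: cagggctgcggaGGACCgaccgtccccac
ENO1, transcript start: tcctaggcgacgAGACCcagtggctag
PFKL, transcript start: catggccgcggtGGACCtggagaagctgc
PFKL, around the stop codon: caccctgagcatGGACAagggcttctgag
PFKFB3, around the stop codon: aacgtatcctgaGGACTtcttccggagag
PFKFB3, first 3' UTR peak: cctcatgggaacGAACTtggacaggtgtt
PFKFB3, second 3' UTR peak: ggtcggaagagtGGACTttgtcctggcct
PKM2, 3' UTR: tggatgcccagaGGACTcccaaccctggc

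Each of the 3 GGACT sites lay 3' of the stop codon, 2 of them in PFKFB3 and 1 in PKM2. In PFKL the site near the stop codon was GGACA, with its central A 11 nt before the first base of the stop codon, so that the printed stretch runs into the TGA. The PFKL site at the transcript start was just inside the reading frame, with its central A 13 nt after the first base of the start codon. In HK1 and ENO1 the site lay in the 5' UTR, 45 nt and 22 nt before the start codon.

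RRACH was found within 50 nt of 8 of the 11 placed peaks. Over all 5127 peaks placed in the same way on 2969 transcripts the share was 88.4%, and over all windows of the same length in those transcripts it was 75.2%. By segment, the motif was near 5 of 6 placed peaks around the stop codon or in the 3' UTR (94.4% of 2556 peaks of that kind) and near 3 of 5 at the transcript start or in the inner 5' UTR (66.5% of 1059). GGACT was near 3 of 6 and 0 of 5 of them, against 31.5% and 16.6% of all such peaks, and in 10.1% of all windows. The transcript start peak of PGK1, the inner 5' UTR peak of PKM2 and the more distal peak of PFKL had no RRACH within 50 nt. The position of the last, 14 nt before the end of the GENCODE transcript, left part of its window empty. With so few peaks these shares describe the 11 and no more.

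PFKFB3 makes fructose 2,6-bisphosphate, the strongest activator of phosphofructokinase, and carried the highest score of the 10 enzymes. Scores are the authors' own, on a scale that is not stated, and ran from 2.00 to 7.91 over 12769 peaks with a median of 3.15. The 3 peaks of PFKFB3 stood at positions 2014, 2398 and 2964 from the 5' end, all in exon 15, the last, which was 2638 nt long. Their scores were 3.95 around the stop codon and 5.64 and 3.24 in the 3' UTR. The middle one exceeded 97.4% of all listed peaks and 97.6% of 3' UTR peaks in transcripts from the expression of PFKFB3 to under a quantile of 0.99. On the GENCODE transcript (chr10:6202931-6235532, plus strand) the peaks lay 124, 508 and 1074 nt past the first base of the stop codon. The motif nearest to the strongest peak was GAACT, 12 nt downstream of it (chr10:6233446-6233474 as printed above), and 3 RRACH sites but no GGACT lay within 50 nt. The weaker peaks had GGACT 35 nt upstream (chr10:6233015-6233043) and 27 nt downstream (chr10:6234027-6234055). The strongest of the 3 peaks was thus the one without GGACT within 50 nt. Within 25 nt, GGACT was near 0 of the 3, so this contrast depends on the window. The last exon of PFKFB3 held 40 RRACH sites in all, far more than lay near its 3 peaks, and 4 of the 40 were GGACT.

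HK1 and HK2 encode hexokinases, which trap glucose in the cell as glucose 6-phosphate. HK1 is the form found in most tissues, and HK2 is typical of muscle, fat and many tumours. They were marked in different exons, HK1 in the first and HK2 in the last. HK1 had a single peak at position 80 in exon 1 (164 nt), with a score of 4.29. That score was above 96.4% of the transcript start peaks in the same range of expression. On the GENCODE transcript (chr10:69318844-69401882, plus strand) it lay in the 5' UTR, 22 nt before the start codon. The printed GGACC was 23 nt upstream of it (chr10:69318889-69318917). HK2 had peaks at positions 4787 around the stop codon (score 4.68) and 5066 in the 3' UTR (score 3.43), 279 nt apart in exon 18, which was 2558 nt long. The former scored above 84.8% of stop codon peaks in the same range of expression. HK2 could not be placed on a GENCODE transcript, the closest of which has a last exon of 2563 nt but another genomic span, so no sequence is given. The 2 hexokinases thus shared no marked segment.

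PFKL is the liver-type subunit of phosphofructokinase, which commits sugar to glycolysis. It had peaks in the first and in the last exon, all with scores below the median of all peaks. They stood at position 95 in exon 1 (144 nt, score 2.13), and at 2366 around the stop codon (score 3.08) and 2902 in the 3' UTR (score 2.39) in exon 22 (659 nt). Its start peak was above only 10.1% of start peaks in the same range of expression. On the GENCODE transcript (chr21:44300051-44327376, plus strand) it lay 35 nt after the first base of the start codon and so within the reading frame, although by distance from the transcript start the authors' segment was that of the start. Its GGACC was 22 nt upstream (chr21:44300105-44300133). The stop codon peak lay 34 nt before the stop codon and had its GGACA 23 nt downstream (chr21:44326835-44326863). PFKL thus combined many peaks with low scores, while PFKFB3, with as many, had all 3 above the median of all peaks.

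PKM2 encodes the pyruvate kinase of muscle and most proliferating tissues, which makes pyruvate and ATP. Its full-length transcript had 1 peak at position 200 in exon 1 (228 nt) in the inner 5' UTR, with a score of 3.03, and 1 at position 2217 in exon 11 (728 nt) in the 3' UTR, with a score of 2.12. The latter exceeded 16.7% of 3' UTR peaks among transcripts with a quantile of 0.99 or more. On the GENCODE transcript (chr15:72199029-72231386, minus strand) the peaks lay 112 nt before the start codon and 357 nt past the first base of the stop codon. The GGACT of the latter was 11 nt upstream of it (chr15:72199292-72199320), the smallest distance between a placed peak and its printed motif among the 8. The deposited description of this transcript is muscle isoform M2, but isoforms were not matched. The GENCODE one has 1551 coding nt, so the distances given here may be those of another isoform. The short partial PKM2 transcript, with almost the same quantile, had no peak.

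PGK1 and ENO1 act in the later steps of the pathway, PGK1 making ATP and ENO1 making phosphoenolpyruvate. Each had 1 peak, at the transcript start. The peak of ENO1 stood at position 105 in exon 1 (142 nt) and had a score of 4.67, above 94.2% of start peaks in transcripts with a quantile of 0.99 or more. It lay 47 nt before the start codon of the GENCODE transcript (chr1:8861002-8878689, minus strand), with the printed AGACC 25 nt downstream (chr1:8878580-8878606). The peak of PGK1 stood at position 145 in exon 1 (237 nt) with a score of 2.96, near the middle of start peaks in that range (50.7% scored lower). It lay 28 nt before the start codon (chrX:78104174-78129296, plus strand). HK1 and ENO1 had the higher scores of the 4 enzymes with a start peak, and PFKL the lowest. A start peak was listed for 4 of 10 enzymes, against 6.27% of all symbols and 20.1% of symbols at or above the expression of PFKFB3.

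**Figure D1:**
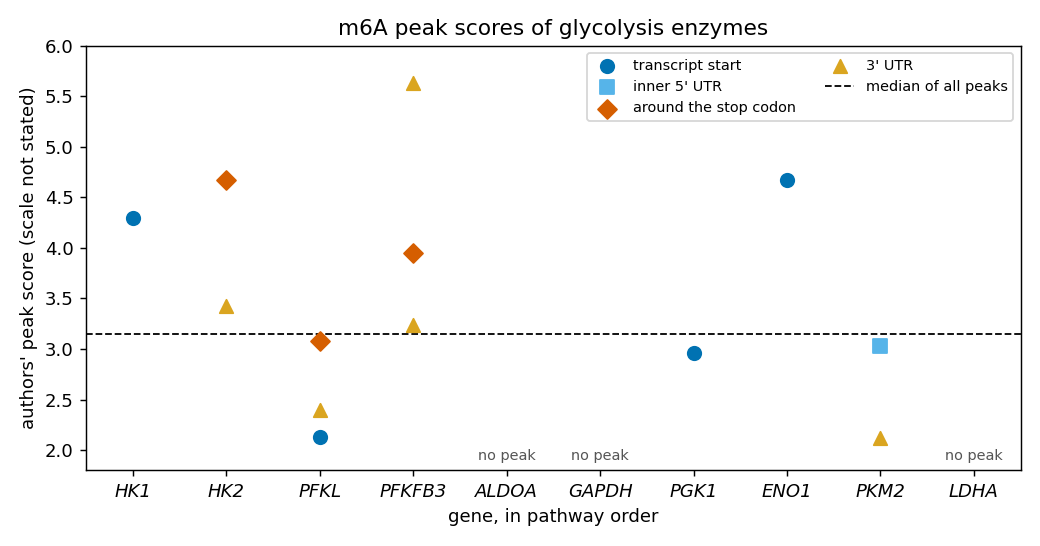
Authors' score (vertical axis, scale not stated) of each of the 13 peaks, by gene in pathway order, with colour and shape for the segment and a dashed line at the median of all peaks (3.15). PFKFB3 holds the highest score, 5.64 in the 3' UTR; ALDOA, GAPDH and LDHA have no peak.

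**Figure D2:**
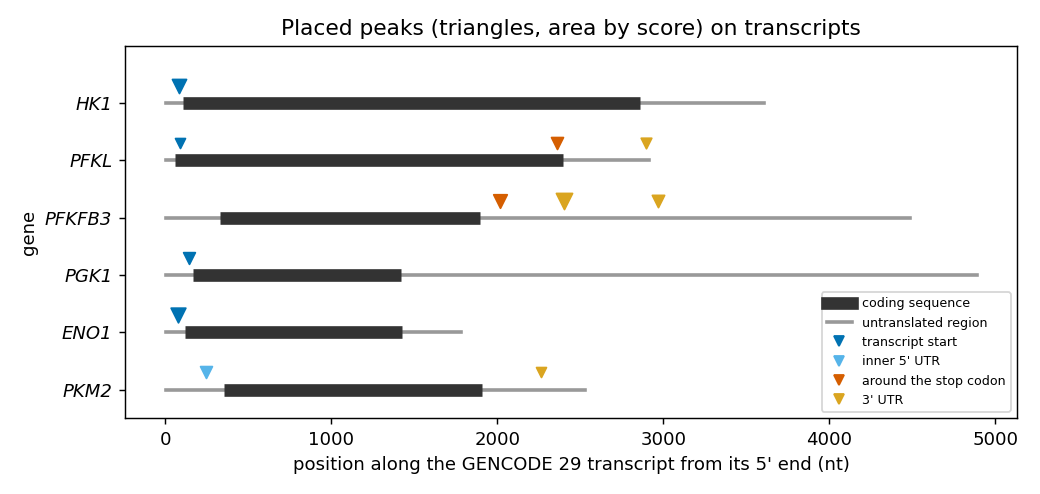
The 11 placed peaks (triangles, area in proportion to score) along GENCODE 29 transcripts of 6 genes, in nt from the 5' end; thick bars are coding sequences and thin lines untranslated regions. The peaks stand near the transcript start or around and beyond the stop codon; the 3' UTR drawn for PGK1 is that of GENCODE and is longer than the table's genomic span allows.

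ALDOA, GAPDH and LDHA had no listed peak at any score. They encode aldolase A, which cleaves fructose 1,6-bisphosphate, the dehydrogenase that yields the first NADH of the pathway, and the lactate dehydrogenase subunit that regenerates NAD+. All 3 were among the most expressed transcripts, with quantiles of 0.99850, 0.99927 and 0.99186. The closest GENCODE coding transcripts, matched by symbol and nearest span alone, were 1550 nt (ALDOA; chr16:30064274-30070414), 1348 nt (GAPDH; chr12:6534534-6538359) and 1887 nt (LDHA; chr11:18394586-18408218) long, all plus strand. They had RRACH 9.0, 10.4 and 14.3 times per 1000 nt, against a median of 13.5 over the 2969 transcripts with placed peaks (5th to 95th percentile 8.9 to 18.8). The LDHA transcript held 3 GGACT sites, the GAPDH transcript 1 and the ALDOA transcript 0. The last exons of ALDOA and GAPDH in these transcripts, 298 and 259 nt, were shorter than any last exon with a peak among the 10 enzymes (659 to 2638 nt). That of the LDHA transcript was 1102 nt. Outside the 10, the sperm isoform GAPDHS had a peak around the stop codon in an exon of only 222 nt. The deposited table describes its LDHA transcript as isoform 1, but isoforms were not matched. The GENCODE one has 726 coding nt, so the LDHA values given here may be those of another isoform. Exon length and motif content were not tested as reasons for the missing peaks. GENCODE names 62 pseudogene copies of GAPDH, 6 of LDHA and 2 of ALDOA, and also 5 of PKM2 and 4 of ENO1, which had peaks, and the treatment of reads matching several places is not given in the sources used here.

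By step, the 5 enzymes of irreversible or controlling reactions (HK1, HK2, PFKL, PFKFB3 and PKM2) all had a peak and together held 11 of the 13 peaks, including all 8 around the stop codon or in the 3' UTR. Of the 5 enzymes of reversible reactions, only PGK1 and ENO1 had a peak, 1 each at the transcript start. This grouping was made after the values were seen. It went with expression, since the median quantile was 0.921 in the former group and 0.998 in the latter, and the part of expression in the difference was not tested. Among the 254 symbols with a quantile of 0.99 or more, 53.9% had a peak, as did 3 of the 6 enzymes there (PGK1, ENO1 and PKM2). In the range from PFKFB3 to under 0.99 the share was 69.6%, and all 4 enzymes there had one.

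A peak around the stop codon or in the 3' UTR was listed for 4 of 10 enzymes (17.9% of all symbols, 45.7% of those at or above the expression of PFKFB3). Of the 13 peaks, 30.8% were at the transcript start, 7.69% in the inner 5' UTR, 23.1% around the stop codon and 38.5% in the 3' UTR. The corresponding shares of all 12424 peaks with a segment were 12.5%, 2.78%, 27.6% and 20.5%, and 36.6% lay in the coding sequence. In transcripts at or above the expression of PFKFB3, 16.1% of peaks were at the transcript start, 29.6% in the coding sequence and 23.4% in the 3' UTR. With a quantile of 0.99 or more these shares were 33.7%, 19.0% and 14.6%. The median score of the 13 peaks, 3.24, was close to that of all peaks.

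**Figure D3:**
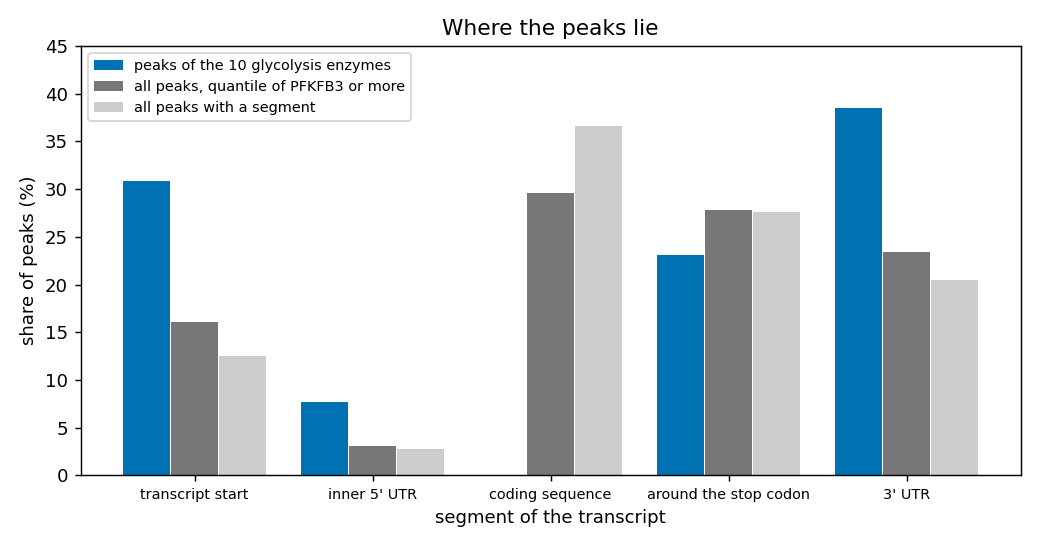
Share of peaks (%) in each transcript segment for the 13 peaks of the glycolysis enzymes (blue), for all peaks of transcripts with at least the expression quantile of PFKFB3 (dark grey) and for all 12424 peaks with a segment (light grey). The enzymes have no peak in the coding sequence segment, which holds 36.6% of all peaks.

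Expression is given as a quantile, a rank from 0 to 1 over transcripts, so it orders genes but gives no fold. All 10 enzymes were well above the median of all transcripts (0.500), with a median of 0.991. GAPDH held rank 20 from the top of 25918 transcripts, ENO1 rank 21, PKM2 rank 27, ALDOA rank 40, LDHA rank 212 and PGK1 rank 242. PFKL followed with a quantile of 0.978, HK1 with 0.921, HK2 with 0.834 and PFKFB3 with 0.765. With 1 value per transcript, no spread is known, and neighbours in this order cannot be told apart. The 4 enzymes with the lowest quantiles included both that were marked in the last exon only.

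Of 28 other genes listed with the pathway, 8 had a peak (28.6%), which is close to the 29.1% of all symbols. At the lowest quantile of the table (0.314) were 7 of the 28. Of the 9 that were expressed at least as strongly as PFKFB3, 3 had one, against 69.0% of all such symbols. These were the platelet-type phosphofructokinase PFKP (start peak, score 3.79), the brain aldolase ALDOC (start peak, 4.36) and the ADP-dependent sugar kinase ADPGK (coding sequence peak, 4.46). No peak was listed for triosephosphate isomerase TPI1 (quantile 0.995), phosphoglucose isomerase GPI (0.994), the lactate dehydrogenase subunit LDHB (0.988), the mitochondrial phosphatase PGAM5 (0.948), the muscle phosphofructokinase PFKM (0.936) or the neuronal enolase ENO2 (0.837). PGAM5 catalyses no step of the pathway but is counted among the 9. A peak was thus listed for PFKP and PFKL, both strongly expressed, and none for PFKM. Both PFKP and ALDOC had their single peak in exon 1, as HK1, PGK1 and ENO1 had.

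Among the less expressed genes, the hexokinase-like HKDC1 (3' UTR, 3.66), the erythrocyte enzyme BPGM (coding sequence, 4.16), the bifunctional kinase and phosphatase PFKFB4 (3' UTR, 2.19), PKLR (3' UTR, 2.78) and the sperm isoform GAPDHS (stop codon, 2.29) had a peak. PFKFB4 had its peak in an exon of 2123 nt, and the exon of the PFKFB3 peaks was of like length (2638 nt). No peak was listed for PFKFB2 (quantile 0.685), C12orf5, now TIGAR (0.529), ENO3 (0.730), PGAM1 (0.609), PGAM2 (0.702), PGAM4 (0.406) or LDHD (0.529). Of the 28 genes, counting those above the lowest quantile, 5 of 8 of irreversible or controlling steps and 2 of 10 of reversible steps had a peak, against 41.5% of all symbols above it. The median quantile, with the genes at the lowest value counted in, was 0.571 over the 12 genes of the former and 0.702 over the 13 of the latter. Of the 3 genes of neither kind, 1 had a peak (BPGM). This grouping too was made after the values were seen.

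Pathway genes known from liver differed in level in these cells labelled HepG2. GCKR and PFKFB1 were tied at the lowest quantile, as were HK3, PGK2 and LDHC, PKLR stood at 0.509, near the median of all transcripts, and the liver-type PFKL at 0.978. Of 15 hepatocyte markers, 8 were at the lowest quantile too, namely ALB, AFP, TTR, SERPINA1, APOA2, APOB, APOH and FOXA2. TF stood at 0.337, APOA1 at 0.403, FGA at 0.415, HNF4A at 0.509, FGG at 0.516 and FGB at 0.619, and none of the 15 had a peak. The defining transcripts of the labelled cell type were therefore largely absent or low, and the peaks described here are those of cells with PKM2 well above the liver isoform PKLR. In RNA from many cells, fewer cells with a transcript and less of it per cell cannot be told apart.

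**Figure D4:**
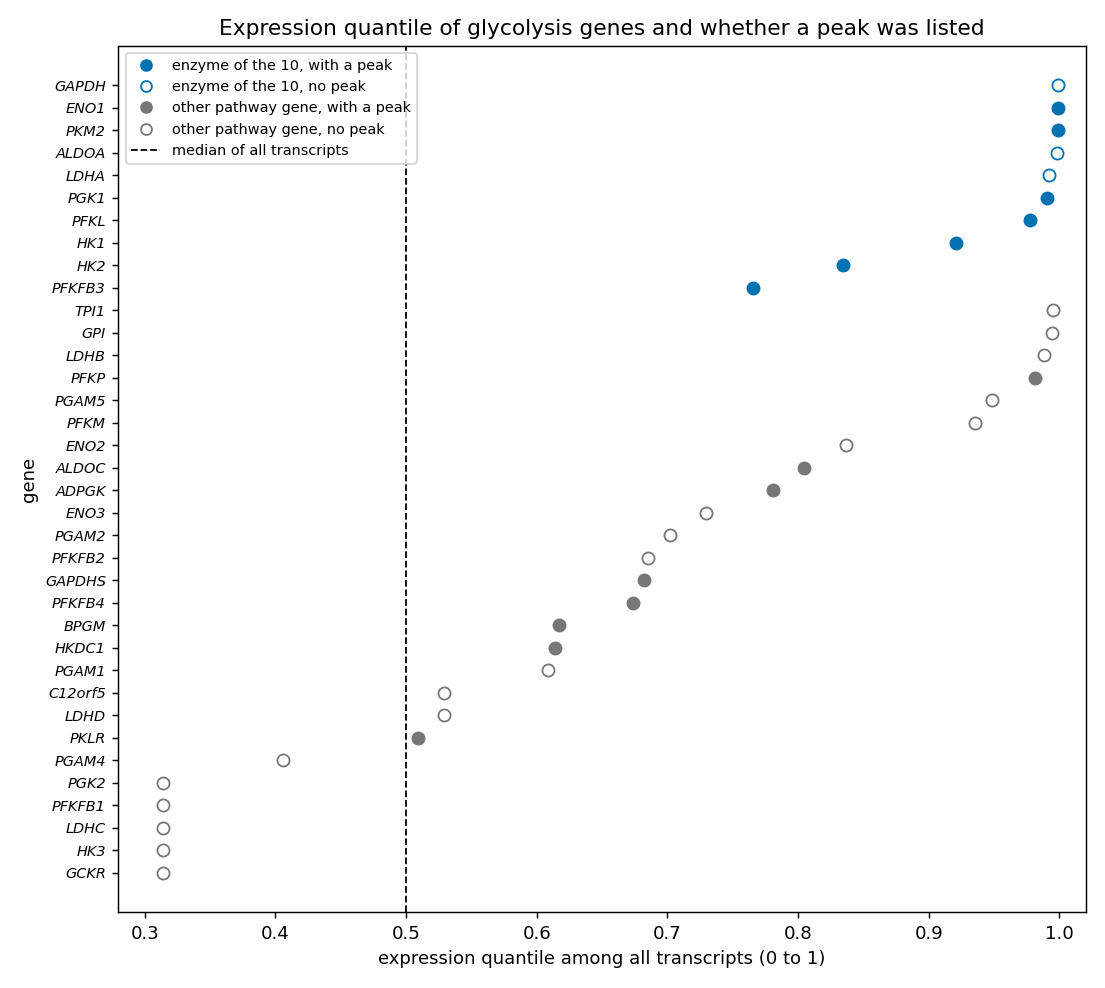
Expression quantile (horizontal axis, 0 to 1 over all transcripts) of the 10 enzymes (blue) and other genes of the pathway (grey), filled where a peak was listed; the dashed line is the median of all transcripts (0.500). All 10 enzymes lie at 0.765 or above, and GCKR, PFKFB1, HK3, PGK2 and LDHC at the lowest value, 0.314.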

How the data were processed

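The authors deposited 1 table for the series, and per the file headers its expression column is a mean quantile, a fraction from 0 to 1. Per the file headers it also gives for each transcript a count of peaks and, for each peak, a score, position, exon number, exon length and segment. The aligner was not given in the sources used here, nor were the peak caller and the build. The transcript start segment lies under 200 nt from the transcript start and the stop codon segment within 200 nt of the stop codon.

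The 10 genes and all lists were chosen with earlier results of these data known. Rows were taken by symbol and counted in Python 3.11.15 with pandas 2.3.3, and a symbol had a peak if any of its transcripts had. Genes to be named were the 10 enzymes, the 28 other pathway genes, the hepatocyte markers and, of each other list, up to 4 genes by top score and the most expressed gene without a peak. Of these, a few are counted in their lists but not reported here by name.

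Peaks were placed on GENCODE 29 transcripts of the same symbol, chromosome and strand, a rule adopted after no enzyme matched in exact span. Simulated data tested only the position on the right transcript, with end differences inside the allowed limit. Competing isoforms were not simulated, so the choice among transcripts was not tested. Internal exons had to equal the listed length, and ends could differ by up to 50 nt where first and last exon lengths accounted for the difference in span. For peaks in exon 1 alone the 3' end was not compared, and a shared first splice junction was assumed. Among several candidates the coding transcript closest in span was taken. Of 4 for HK1 only this one held the 101 nt around the peak, while all 7 for ENO1 did. Printed coordinates are those of GENCODE in GRCh38. Alternatives were score minimums of 3 and 4, 1 transcript per symbol, other backgrounds, motif windows of 25 and 100 nt and matches by span.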

Additional observations from a re-analysis of the deposited data

How the results depend on the processing

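With only peaks of score 4 or more, 4 enzymes (HK1, HK2, PFKFB3 and ENO1) kept a peak, with 4 peaks in all, 2 of them around the stop codon or in the 3' UTR. The share of all symbols with such a peak was 10.5%, and 3 other pathway genes had one. With a minimum of 3, 6 enzymes had 9 peaks (20.1% of all symbols had one), and 5 other pathway genes had one. Against symbols at least as expressed as PFKFB3 the background share was 69.0%, not 29.1%. Taking 1 transcript per symbol changed none of the counts of enzymes, peaks or other pathway genes. RRACH was near 7 placed peaks within 25 nt and 9 within 100 nt, against 8 within 50 nt, and GGACT near 1 within 25 nt and 3 within 100 nt. With spans equal within 10 nt only PFKFB3 could be placed, with RRACH near its 3 peaks, and with exactly equal spans no enzyme could. No paired analysis was possible because the table has no column per library, and for the same reason no library could be left out. No listed score was below 2.00, so weaker peaks may exist, and what depth limits is unknown.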

Other observations

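A peak was listed for 29.1% of all symbols, for 41.5% of those above the lowest quantile and for 69.0% of those at least as expressed as PFKFB3. Of 17 genes that bring glucose in and let lactate out, 9 had a peak (52.9%), with 15 peaks, and all 4 in the range of PFKFB3 and above had one. BSG, the chaperone of lactate transporters, led with a top score of 5.21 at the transcript start, followed by the lactate transporter SLC16A1 (5.01, coding sequence) and the glucose transporters SLC2A3 (4.92, around the stop codon) and SLC2A1 (3.99, 3' UTR). SLC2A4 was the most expressed of them without a peak, at a quantile of 0.481. The liver glucose transporter SLC2A2 was at the lowest quantile. Of 9 genes of gluconeogenesis, 4 had a peak (44.4%), and these were the 4 in the range of PFKFB3 and above. They were PCK2 (3.58), PC (3.39), G6PC3 (3.08) and SLC37A4 (2.74), while FBP2 (quantile 0.489) was the most expressed without one.

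Of 11 genes of the pentose phosphate pathway, 7 had a peak (63.6%), including 6 of the 7 in the range of PFKFB3 and above. Among them were PRPS1 (4.86, transcript start), PGD (3.06, transcript start) and H6PD (2.89 with 4 peaks). Transketolase TKT (quantile 0.999) had none. Of 32 genes of pyruvate oxidation and the citric acid cycle found in the table, 16 had a peak. In the range of PFKFB3 and above it was 11 of 20, against the 69.0% of all symbols there. Of their 22 peaks, 10 were at the transcript start, where 12.5% of all peaks with a segment lay. In transcripts at or above the expression of PFKFB3 that share was 16.1%. Scores reached 6.59 in OGDH, 4.62 in PDP2 and 3.28 in MDH2, and SDHA (quantile 0.984) had none.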
